A study of Homo sapiens with 6 samples.

Results

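The metallothioneins measured here were the 9 genes MT1A, MT1E, MT1F, MT1G, MT1H, MT1L, MT1M, MT1X and MT2A of chromosome 16, taken by symbol from the 27470 genes of the count table. They were chosen by their own counts in this experiment, because they were lower in ABHD5-induced cells, so their levels and fold changes are given as a description and carry no test. Metallothioneins are small cysteine-rich proteins that bind zinc and copper through their thiol groups and also hold cadmium. They buffer free zinc in the cell, and their genes are among the most strongly metal-inducible in human cells. The transcription factor MTF1 senses zinc and binds metal response elements (MREs) in their promoters, and glucocorticoids and oxidative stress are other known inducers.

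The cells were 22Rv1, a castration-resistant human prostate cancer line, carrying a lentiviral doxycycline (Dox)-inducible ABHD5 transgene (pInducer20-ABHD5) and selected with G418. ABHD5 is a lipid droplet protein that activates the triglyceride lipase ATGL. Libraries of mRNA 3′ ends came from 3 samples without Dox (the Control group) and 3 with Dox (the OE group) after 48 h, and both groups carried the transgene. Dox and induced ABHD5 cannot be told apart in these libraries, which hold no parent cells given Dox, and the dose used for them is not given in the sources used here. Nothing states whether the replicates were separate cultures, so the p-values below measure only the spread between these samples.

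The genes outside the family that bear on these results were checked first. ABHD5 (chr3:43690108-43734371, hg38) had 63.2, 57.8 and 62.6 CPM (counts per 1000000, after TMM scaling) without Dox and 125.4, 130.3 and 91.3 CPM with Dox. It was higher in every library with Dox, with a log2 fold change of 0.91 (SE 0.15; edgeR adjusted p = 1.979e-04). The libraries held 3394672 to 7271771 counts in genes, and 12233 genes had enough counts for the fit. Of these, 1675 (13.7%) were lower and 1451 (11.9%) higher with Dox at an adjusted p below 0.05, a share of higher calls of 46.4% that became 65.5% when libraries were scaled by their totals alone. That scaling moved the median log2 fold change of all tested genes from 0.016 to 0.14. All 7 markers of prostate luminal cells were counted in every library, with a summed level of 1503 to 1613 CPM without Dox and 954 to 1055 CPM with Dox. The 6 markers of fibroblasts, leukocytes and endothelium summed to 3.40 to 4.70 CPM and 6.93 to 11.3 CPM. Of these 6, PECAM1 was at 0 in all libraries, and COL1A2 and PTPRC had at most 1 count in any library. The collagen gene COL1A1 was higher with Dox (log2 fold change 1.22, SE 0.40; adjusted p = 0.0314), though its groups overlapped. VIM had 3, 4 and 9 counts without Dox and 7, 12 and 27 with Dox. DCN went the other way, from 1, 2 and 6 counts to 2, 0 and 0. VIM and DCN had too few counts for the fit.

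The 9 genes lie within 75.6 kb of chromosome 16 (chr16:56608584-56684196, hg38, GENCODE 44), in the order MT2A, MT1L, MT1E, MT1M, MT1A, MT1F, MT1G, MT1H and MT1X. MT1G is the only member on the minus strand. MT1L is annotated as a transcribed unprocessed pseudogene, and the other 8 as protein-coding genes. The 250 bases upstream of the start were held for 3 of the 9 members in the RefSeq promoter table (GRCh38.p14), and are shown because they carry the elements through which zinc acts on these genes. MT2A (chr16:56608334-56608583) was the most counted member, MT1H (chr16:56669564-56669813) was near the counting limit and MT1X (chr16:56682220-56682469) lay between them. The sequences are of the plus strand, 5′ to 3′, and capitals mark the MRE cores on either strand, searched as TGCACNC and TGCGCNC:
MT2A: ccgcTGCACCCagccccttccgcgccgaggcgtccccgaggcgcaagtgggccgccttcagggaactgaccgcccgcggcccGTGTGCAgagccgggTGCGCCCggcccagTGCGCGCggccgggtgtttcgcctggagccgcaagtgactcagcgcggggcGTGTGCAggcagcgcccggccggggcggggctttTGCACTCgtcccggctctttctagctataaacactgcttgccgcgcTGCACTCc
MT1H: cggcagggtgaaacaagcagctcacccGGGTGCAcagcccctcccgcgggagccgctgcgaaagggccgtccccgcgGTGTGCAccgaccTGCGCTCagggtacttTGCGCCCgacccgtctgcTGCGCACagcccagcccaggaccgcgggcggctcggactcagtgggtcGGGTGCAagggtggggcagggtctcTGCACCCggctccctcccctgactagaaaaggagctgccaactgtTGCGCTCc
MT1X: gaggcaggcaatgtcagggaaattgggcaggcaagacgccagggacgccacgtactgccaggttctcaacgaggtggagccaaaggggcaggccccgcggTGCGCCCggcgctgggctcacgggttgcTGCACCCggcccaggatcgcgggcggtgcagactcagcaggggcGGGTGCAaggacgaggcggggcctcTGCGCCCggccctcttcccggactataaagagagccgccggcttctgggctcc

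The MT2A promoter held 7 MRE cores, the MT1H promoter 8 and the MT1X promoter 4. Of the 34943 promoters of the same length in the table, 24.8% held at least 1 core. At least as many as in MT2A were found in 11 promoters (0.0315%), as in MT1H in 6 (0.0172%) and as in MT1X in 129 (0.369%). Each of the 3 promoters had a core at a similar distance from the start, 54 to 48 bases upstream in MT2A and 53 to 47 bases upstream in both MT1H and MT1X. MT1H and MT1X shared a second position, 78 to 72 bases upstream, where the core is on the minus strand. MT2A and MT1H shared the position nearest the start, 8 to 2 bases upstream, with the core on the plus strand. Without gaps, the last 100 bases of MT1H and MT1X were 66.0% identical, against 33.0% for MT2A and MT1H and 34.0% for MT2A and MT1X.

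Other letters were searched in the same windows on both strands. A TATA box (TATAAA), held by 10.8% of promoters, was matched in MT2A and MT1X and not in MT1H. A GC box (GGGCGG, 42.5% of promoters) was matched 2 times in MT2A, 2 times in MT1X and 1 time in MT1H, and in MT1X the match 82 to 77 bases upstream overlaps the MRE core that starts at 78. An AP-1 element (TGANTCA, 6.6% of promoters) was matched in MT2A alone of the 3. The hexamer TGTTCT of the glucocorticoid response element, present in 12.4% of promoters, was in none of the 3 windows. Bases farther upstream than 250 and other spellings of that element were not searched. Its absence here therefore does not show that these promoters lack a glucocorticoid response element. These matches describe the letters and do not show which factor was bound in these cells.

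The metallothioneins as a whole were far lower with Dox, in each of the 3 libraries. The 9 genes together took 2956, 2605 and 4807 counts in Control replicates 1 to 3 and 213, 112 and 361 in the OE replicates. On the CPM scale the sum was 769, 805 and 836 without Dox and 46.1, 31.1 and 47.2 with Dox. The lowest library without Dox was thus far above the highest with Dox. The means were 803 ± 33.4 CPM and 41.5 ± 9.05 CPM (SD, n = 3), a 19.4-fold difference or -4.28 on the log2 scale. When the 9 genes were summed into a single row of the edgeR fit, the log2 fold change was -4.26 with an SE of 0.16.

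As a share of all counts in genes, the family went from a mean of 0.0770% to 0.00433%. These are shares of the counted mRNA, so fewer cells that express the genes and less mRNA per cell cannot be told apart.

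**Figure D1:**
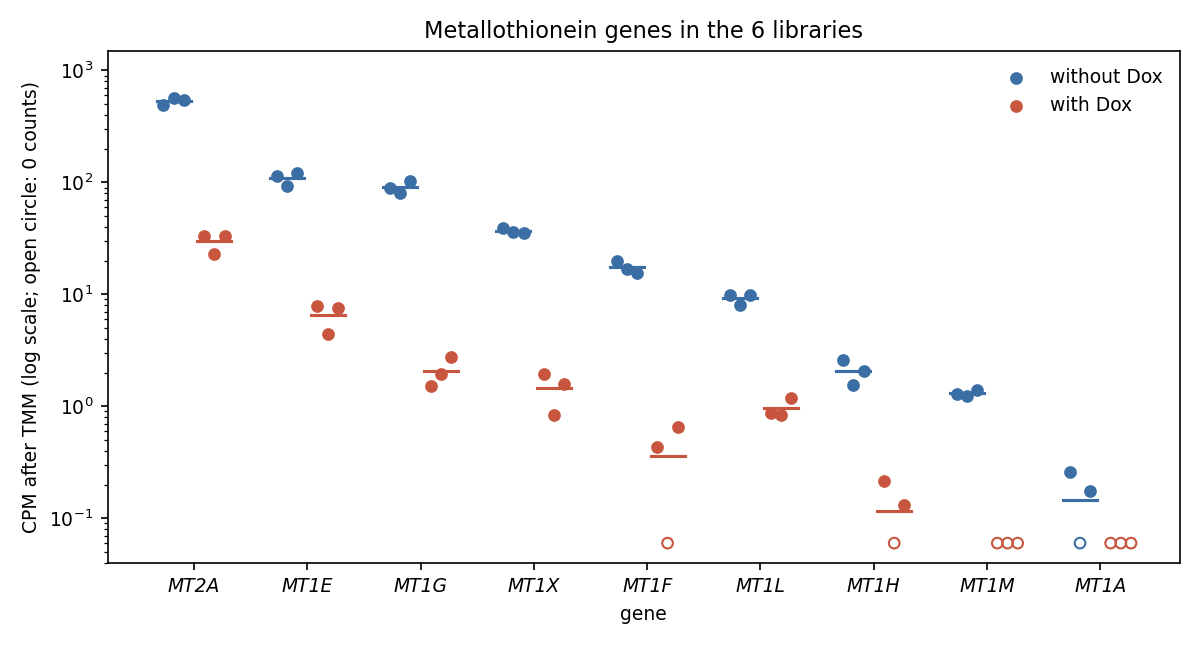
CPM of each metallothionein gene in each library (log axis, points; horizontal bars are means of 3 libraries), without Dox in blue and with Dox in red, with open circles for libraries with 0 counts. MT2A stood at 494 to 569 CPM without Dox and 23.0 to 33.4 CPM with Dox, and for every gene but MT1A each blue point lies above each red point.

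MT2A, the main metallothionein of most human tissues, carried most of these counts. It had 1898, 1840 and 3151 counts without Dox and 154, 83 and 255 with Dox. This corresponds to 494, 569 and 548 CPM and to 33.4, 23.0 and 33.4 CPM. The groups were far apart, and the lowest value with Dox came from replicate 2, the shallowest of those libraries. The log2 fold change was -4.15 (SE 0.16).

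MT1E and MT1G were the most counted of the MT1 genes, which encode closely related isoforms. MT1E had 113, 92.1 and 120.2 CPM without Dox and 7.80, 4.44 and 7.59 CPM with Dox. Its log2 fold change was -3.99 (SE 0.19). MT1G had 89.3, 80.3 and 103 CPM without Dox and 1.52, 1.94 and 2.75 CPM with Dox, which is 343, 260 and 593 counts against 7, 7 and 21. The 2 genes were at similar levels without Dox, with overlapping ranges, and did not overlap with Dox. MT1G was the lower of the 2 in each library of both groups. At -5.37 (SE 0.22), the log2 fold change of MT1G was the lowest of the 12233 tested genes in this fit. Without Control replicate 3, OE replicate 1 or OE replicate 3, that of MT1F was lower still.

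MT1X and MT1F showed the same direction at lower levels. MT1X had 149, 117 and 204 counts without Dox and 9, 3 and 12 with Dox. Its mean was 36.8 ± 1.74 CPM without Dox and 1.45 ± 0.569 CPM with Dox (SD, n = 3), a log2 fold change of -4.59 (SE 0.26). MT1F had 76, 55 and 90 counts without Dox and 2, 0 and 5 with Dox. Both were separated without overlap, but every library with Dox had few counts, and replicate 2 had none for MT1F. The fitted log2 fold change of MT1F was -5.24 (SE 0.41), which became -6.0 without OE replicate 3.

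MT1L, the pseudogene, changed least among the fitted members. It had 38, 26 and 57 counts without Dox and 4, 3 and 9 with Dox, and the groups did not overlap. Its log2 fold change was -3.19 (SE 0.36). The annotated MT1L gene overlaps a long noncoding RNA gene, ENSG00000291105, and MT1X overlaps ENSG00000259827. Whether the counting used strand is not given in the sources used here, so reads of overlapping genes may be mixed.

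The 3 remaining members had too few counts for the fit. MT1H had 10, 5 and 12 counts without Dox and 1, 0 and 1 with Dox, a ratio of 16.7-fold with a 95% counting interval of 4.20 to 144.9. MT1M had 5, 4 and 8 counts without Dox and 0 in all 3 libraries with Dox. Against a floor of 3 counts per library this is at least 2.10-fold lower. MT1A had 1, 0 and 1 counts without Dox and 0 with Dox, which allows no fold. The floor of 3 counts corresponded to 0.393 to 0.927 CPM, and intervals and floors cover counting error only.

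In all, 8 of the 9 members had every library with Dox below every library without Dox, a pattern seen in 20.5% of tested genes, and MT1A was the exception. The fit tested 6 of the 9, and all 6 were called lower beside 13.7% of all tested genes. Both counts follow from how the genes were chosen. Only MT2A and MT1E had enough counts in the libraries with Dox to pass the filter on those alone, and the other 4 passed through their level without Dox. In the whole table, 17 tested genes had a log2 fold change at or below that of MT1L, these 6 among them.

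Compared per length of the canonical transcript, the order without Dox was MT2A, MT1G, MT1E, MT1X, MT1F, MT1H, MT1M and MT1A. The levels were 1339 ± 96.2 CPM per kb for MT2A, 222 ± 28.0 for MT1G and 146 ± 19.7 for MT1E (SD, n = 3). MT1X stood at 91.1 ± 4.31 CPM per kb and MT1F at 41.1 ± 4.95. MT1G ranks above MT1E here, and below it in CPM, because the canonical MT1E transcript is 746 bases long against 410 for MT1G. Libraries of 3′ ends give about 1 read per transcript whatever its length, so CPM is the measure closer to transcript number here. The rank of MT1G above MT1E per length is therefore not a difference in transcript number. MT1L, whose pseudogene model is 186 bases, was left out of the per-length order. With Dox, MT2A had 74.6 ± 14.9 CPM per kb and MT1E 8.86 ± 2.53, with lower means for MT1G at 5.04 ± 1.53 and MT1X at 3.59 ± 1.41. The spreads of MT1E and MT1G overlap, as do those of MT1G and MT1X.

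The make-up of the family shifted within this fall. MT1G made 11.6%, 9.98% and 12.3% of the family's counts without Dox and 3.29%, 6.25% and 5.82% with Dox, without overlap. The exact binomial 95% interval of the highest of the latter, 6.25% of 112 counts, was 2.55% to 12.5% and reached into the values without Dox. MT1L moved the other way, from 1.29%, 0.998% and 1.19% to 1.88%, 2.68% and 2.49% of the family's counts. These shares rest on 3 to 9 MT1L counts in the libraries with Dox, with intervals as wide as 0.556% to 7.63%.

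MT2A remained the largest component throughout, at 66.8 ± 3.39% of the family's counts without Dox and 72.3 ± 1.74% with Dox (SD, n = 3), and its groups met at 70.6%. MT1E made 13.5 ± 1.81% and 15.8 ± 1.34%, with overlap. MT1X went from 4.59 ± 0.408% to 3.41 ± 0.777% and MT1F from 2.18 ± 0.355% to 0.775 ± 0.707%. Seen along the chromosome, the 3 fitted genes nearest the MT2A end (MT2A, MT1L and MT1E) had log2 fold changes of -4.15 to -3.19, and the 3 toward the other end (MT1F, MT1G and MT1X) of -5.37 to -4.59. The 2 sets of 3 do not overlap, with SEs of 0.16 to 0.41. Their nearest values were close, at -4.15 (SE 0.16) for MT2A and -4.59 (SE 0.26) for MT1X. MT1H, between MT1G and MT1X, was not fitted. Its ratio of 16.7-fold was like that of MT2A in mean CPM (17.9-fold), and its counting interval of 4.20 to 144.9 reaches both sets. No test was run because the members were chosen on these values.

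**Figure D2:**
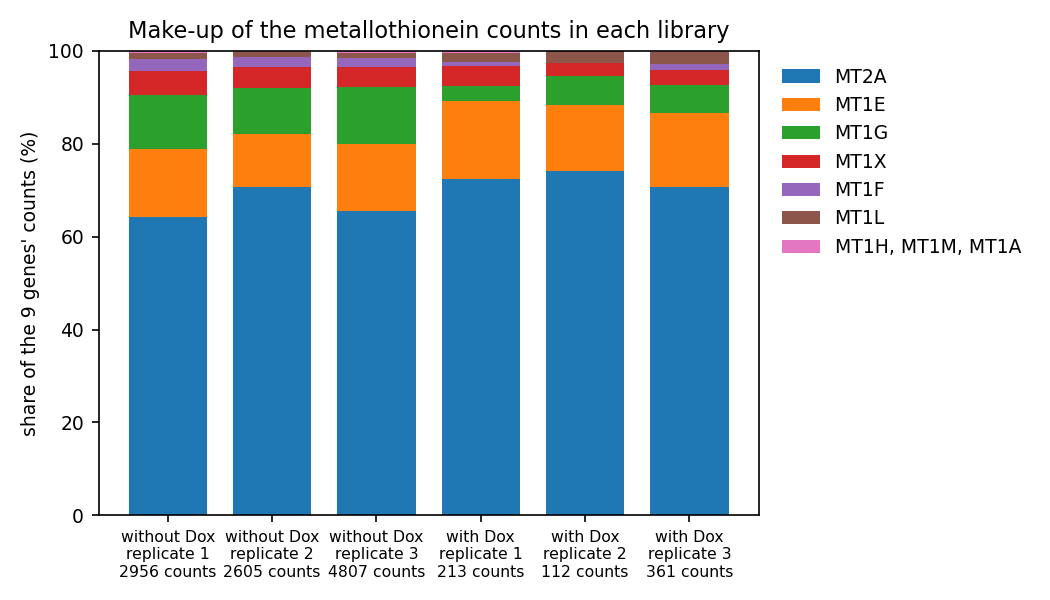
Share of the 9 genes' counts (percent, stacked bars from 0 to 100) taken by each metallothionein gene in each library, with the family's total count under each bar. MT2A took 64.2 to 74.1% in all 6 libraries, and the MT1G band narrowed from 9.98 to 12.3% without Dox to 3.29 to 6.25% with Dox.

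The members are near copies of each other, so reads could be assigned to the wrong copy. In the last 300 bases of each canonical transcript, none of the 100-base windows, the read length, was identical to another family locus on chromosome 16. The MT1L model is shorter, at 186 bases, so its search covered 87 windows against 201 for each other member and no bases outside that model. The closest windows differed at 1 base for MT1G, MT1X and MT2A, at 3 for MT1A, MT1E and MT1M, at 4 for MT1H and MT1L and at 5 for MT1F. Windows within 2 differences of another locus made up 9.5% for MT1G, 10.9% for MT1X and 12.4% for MT2A, and there were none for the others. The count table lists 0 reads with several best alignments in each library. This does not show whether such reads were removed before counting. The family sum does not depend on how counted reads were divided among the 9 members, but it would lack any reads removed earlier.

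Within 500 kb of the cluster, 14 other genes were in the table and 7 were tested, with a median log2 fold change of 0.027 beside 0.016 for all tested genes. Of the 7, 1 was lower (14.3%, beside 13.7% of all genes) and 2 were higher (28.6%, beside 11.9%), and the number higher was 1 without OE replicate 1 and 3 without OE replicate 2. NUP93, a nuclear pore component and the nearest tested gene past MT1X at 45.9 kb, was lower, with 175.7, 146 and 138 CPM without Dox and 84.7, 93.2 and 89.9 CPM with Dox. Its log2 fold change was -0.78 (SE 0.13; edgeR adjusted p = 2.529e-04).

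On the other side, BBS2, a component of the BBSome of cilia whose gene overlaps MT4, had a log2 fold change of 0.46 (SE 0.18; adjusted p = 0.0611, and 0.0206 to 0.266 over 14 alternative settings). HERPUD1, which lies beyond NUP93 and encodes a component of endoplasmic reticulum-associated degradation, rose with a log2 fold change of 0.64 (SE 0.16; adjusted p = 0.00745). OGFOD1 (-0.10, adjusted p = 0.688), NUDT21 (-0.16, adjusted p = 0.504) and CPNE2 (0.03, adjusted p = 0.962) did not pass the threshold, and the signs of OGFOD1 and CPNE2 changed on leaving out single libraries.

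**Figure D3:**
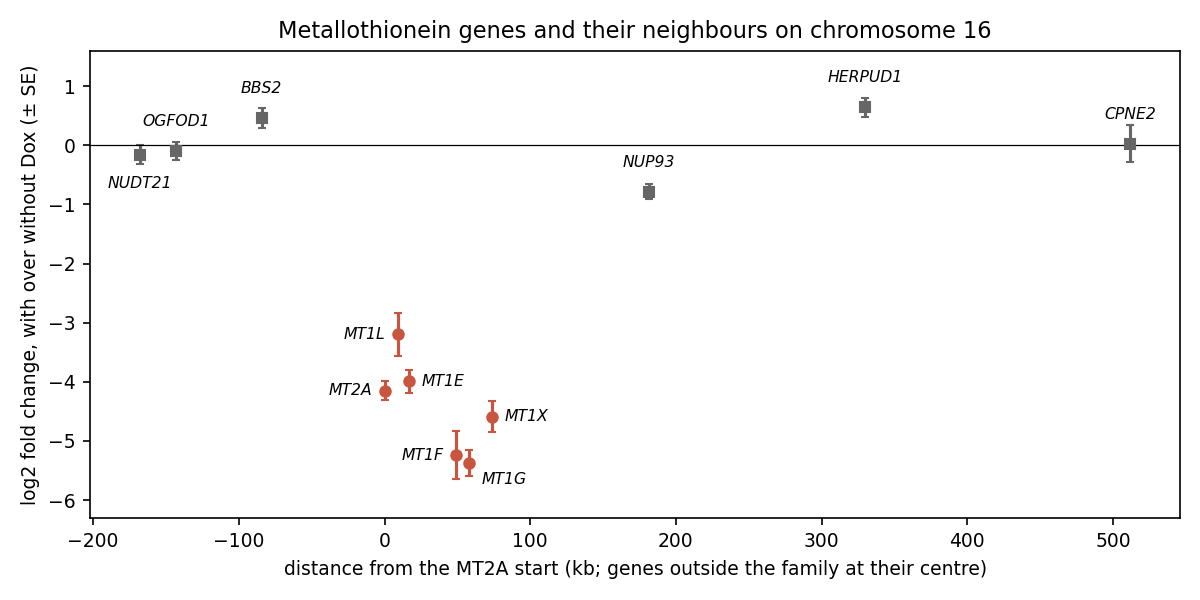
Log2 fold change (with over without Dox, bars ± SE) against distance from the MT2A start in kb, for the 6 fitted metallothionein genes (red) and 6 of the 7 tested genes within 500 kb (grey, at their centres). The metallothioneins lie between -5.37 and -3.19, and the 6 other genes between -0.78 and 0.64.

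The other metallothionein rows of the table were at or near 0. MT3, known from brain, had 3, 6 and 0 counts without Dox and 0 with Dox. The pseudogene MT1DP had 2, 1 and 0 counts without Dox and 0, 0 and 1 with Dox, and the pseudogene MT1JP had 1 count in all, without Dox. MT1B, MT4, MT1HL1 and MT1IP had 0 counts in all 6 libraries. At these counts no difference was detectable.

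Other genes of metal handling were followed in a list of 34, of which 27 were tested. Of these, 5 were lower (18.5%, beside 13.7% of all genes) and 1 was higher (3.7%, beside 11.9%), and the median log2 fold change was -0.15. MTF1, the zinc-sensing factor, had 36.2, 41.1 and 39.8 CPM without Dox and 38.6, 33.3 and 33.8 CPM with Dox, with overlap. Its log2 fold change was -0.15 (SE 0.15; edgeR adjusted p = 0.510).

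SLC30A1, the zinc exporter of the plasma membrane and itself an MTF1 target, had 23, 12 and 28 counts without Dox and 13, 10 and 23 with Dox. Scaled for depth these were 4.85 ± 1.14 CPM and 2.87 ± 0.126 CPM (SD, n = 3), without overlap. The log2 fold change was -0.76 (SE 0.34; adjusted p = 0.117), and no alternative setting called it. SLC39A10, a zinc importer that MTF1 is known to repress when zinc is high, fell from 199.7 ± 16.3 CPM to 149.9 ± 12.1 CPM (log2 fold change -0.41, SE 0.12; adjusted p = 0.0207). This call was lost without Control replicate 1 (-0.36, adjusted p = 0.110), without OE replicate 1 (-0.37, adjusted p = 0.102) and with library totals alone (-0.29, adjusted p = 0.0874).

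Among the SLC39 importers, which bring zinc into the cytosol, 4 of 11 tested (36.4%, beside 13.7% of all genes) were lower and none higher, with a median of -0.24. SLC39A7, which releases zinc from the endoplasmic reticulum, fell from 244 ± 29.0 CPM to 168 ± 9.28 CPM (log2 fold change -0.53, SE 0.13; adjusted p = 0.00468). SLC39A4 (-0.72, adjusted p = 0.0315) and SLC39A1 (-0.36, adjusted p = 0.0480) were also lower. SLC39A4 lost its call without Control replicate 1 or 3 or OE replicate 1 or 2 (adjusted p up to 0.121), and SLC39A1 without any of these 4 or Control replicate 2 (up to 0.152).

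Among the SLC30 exporters, 1 of 6 tested (16.7%, beside 11.9% of all genes) was higher and none lower, with a median of 0.028. This was SLC30A4, a vesicular zinc transporter, which rose from 2, 3 and 5 counts to 19, 12 and 40 (log2 fold change 2.44, SE 0.46; adjusted p = 7.515e-04). Among the genes of copper handling and the rest, 1 of 9 (11.1%, beside 13.7% of all genes) was lower, with a median of -0.34. This was COX17, the copper chaperone of cytochrome oxidase, at -0.63 (SE 0.18; adjusted p = 0.0149), which lost its call without Control replicate 3 (-0.36, adjusted p = 0.116). The number of listed genes called lower was 2 without Control replicate 1 or 3 and 3 without OE replicate 1. The number higher was 2 without Control replicate 2 and 3 without OE replicate 2. With library totals alone 2 were lower and 3 higher.

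The other known inducers were followed through lists of their target genes. Of 12 glucocorticoid receptor targets, 11 were tested, 7 were lower (63.6%, beside 13.7% of all genes) and 1 was higher (9.09%, beside 11.9%), with a median log2 fold change of -0.58. FKBP5, a co-chaperone of steroid receptors, had 1652, 1631 and 1657 CPM without Dox and 629, 635 and 508 CPM with Dox. Its log2 fold change was -1.48 (SE 0.13; edgeR adjusted p = 2.838e-07). ZBTB16, a transcriptional repressor, fell from 56.3 ± 8.78 to 26.8 ± 4.02 CPM (log2 fold change -1.08, SE 0.17; adjusted p = 1.183e-04).

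NFKBIA, the inhibitor of NF-kappa-B, fell by 0.67 on the log2 scale (adjusted p = 0.00175), and KLF9, a Krüppel-like factor, by 0.62 (adjusted p = 0.00484). ERRFI1, an inhibitor of EGF receptor signalling, rose from 20.5 ± 0.740 to 45.2 ± 9.65 CPM (log2 fold change 1.16, SE 0.18; adjusted p = 1.231e-04). NR3C1, the glucocorticoid receptor gene, had a log2 fold change of 0.29 (adjusted p = 0.183). The number of the list's genes called lower was 4 with library totals alone, without Control replicate 3 and without OE replicate 2.

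Targets of the oxidative stress factor NRF2 split in both directions. Of 15 such genes, 14 were tested, 4 were lower (28.6%, beside 13.7% of all genes) and 4 higher (28.6%, beside 11.9%), with a median log2 fold change of 0.086. HMOX1, heme oxygenase and also metal-inducible, fell from 24.2 ± 1.12 to 13.2 ± 3.68 CPM (log2 fold change -0.90, SE 0.21; edgeR adjusted p = 0.00417). SRXN1, sulfiredoxin, fell by 0.63 on the log2 scale (adjusted p = 0.00108), and GCLM, the modifier subunit of the glutathione synthesis enzyme, by 0.63 (adjusted p = 0.00175). GSR, glutathione reductase, fell by 0.41 (adjusted p = 0.0462).

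In the same list FTL, the ferritin light chain, rose by 0.66 on the log2 scale (SE 0.15; adjusted p = 0.00415), NQO1, a quinone reductase, by 0.74 (adjusted p = 0.0133), and SLC7A11, the cystine transporter, by 0.55 (adjusted p = 0.0262). GCLC, the catalytic partner of GCLM, rose by 0.39 (adjusted p = 0.0493). GCLC lost its call on leaving out any single library (adjusted p = 0.0625 to 0.147), and GSR without Control replicate 1 or 3 or OE replicate 1 or 2 (up to 0.156). NQO1 lost it without Control replicate 1 or 2 or OE replicate 3 (up to 0.0733), and SLC7A11 without Control replicate 1 or 2 or OE replicate 1 (up to 0.131). The number called higher was 1 without Control replicate 1 or 2 and 2 without OE replicate 1 or 3.

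**Figure D4:**
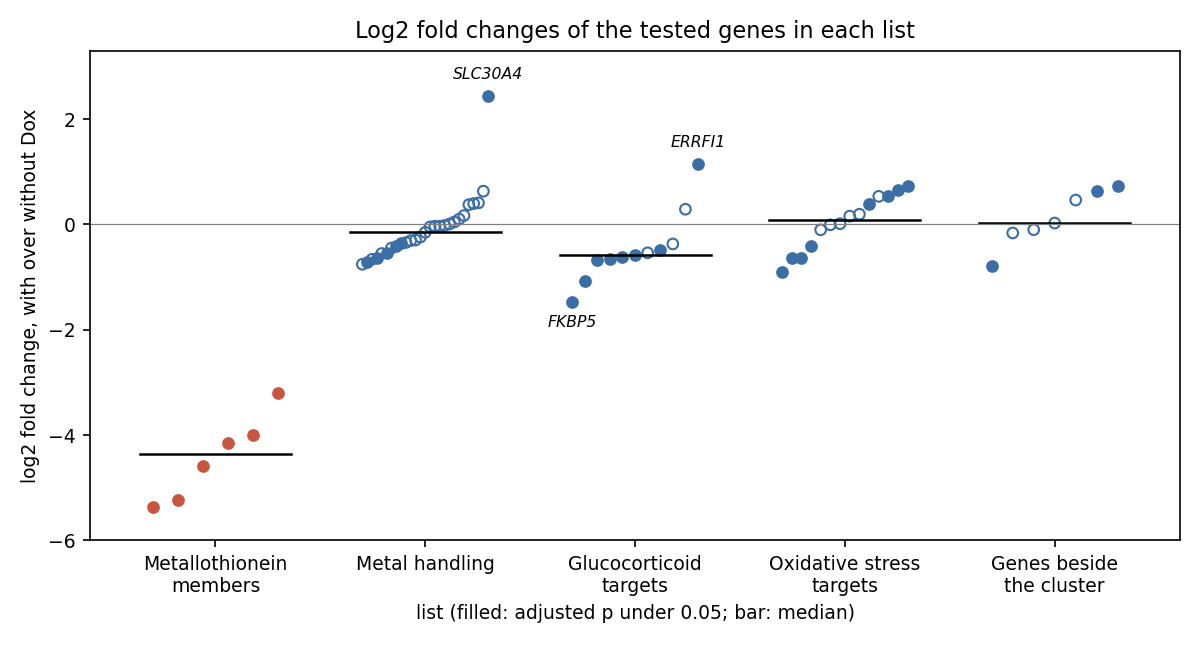
Log2 fold changes (with over without Dox) of the tested genes of each list, with filled points at an adjusted p below 0.05, open points above it and bars for the medians. The 6 metallothioneins have a median of -4.37, and the other lists have medians of -0.15 (metal handling), -0.58 (glucocorticoid targets), 0.086 (oxidative stress targets) and 0.027 (genes beside the cluster).

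The genes whose levels across the 6 libraries were most like the metallothionein sum were found among 9416 genes with a mean of at least 50 counts. Likeness was the root mean square (RMS) difference of log2(CPM + 0.5) after each profile was centred on its own mean. Among the nearest 5 genes, of which 4 are described, PHGR1 had an RMS of 0.487 and went from 45.2 ± 5.78 to 2.39 ± 1.96 CPM.

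STEAP4, a metalloreductase that acts on iron and copper, followed (RMS 0.516), with 42.0 ± 2.83 CPM without Dox and 2.79 ± 1.06 CPM with Dox. GCNT1, a glycosyltransferase of O-linked glycans, had an RMS of 0.561 and went from 73.3 ± 9.96 to 7.04 ± 0.437 CPM. TESC, the calcium-binding protein tescalcin, had an RMS of 0.568 and went from 53.6 ± 5.02 to 5.41 ± 0.988 CPM. The fitted log2 fold changes of these 4 ran from -4.01 for STEAP4 to -3.26 for TESC, and none was as low as the -4.26 fitted for the metallothionein sum. As a ratio of mean CPM, PHGR1 was 18.9-fold lower with Dox, close to the 19.4-fold of the sum. With 2 groups of 3 libraries, such likeness rests mainly on the size of the difference between the groups.

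**Figure D5:**
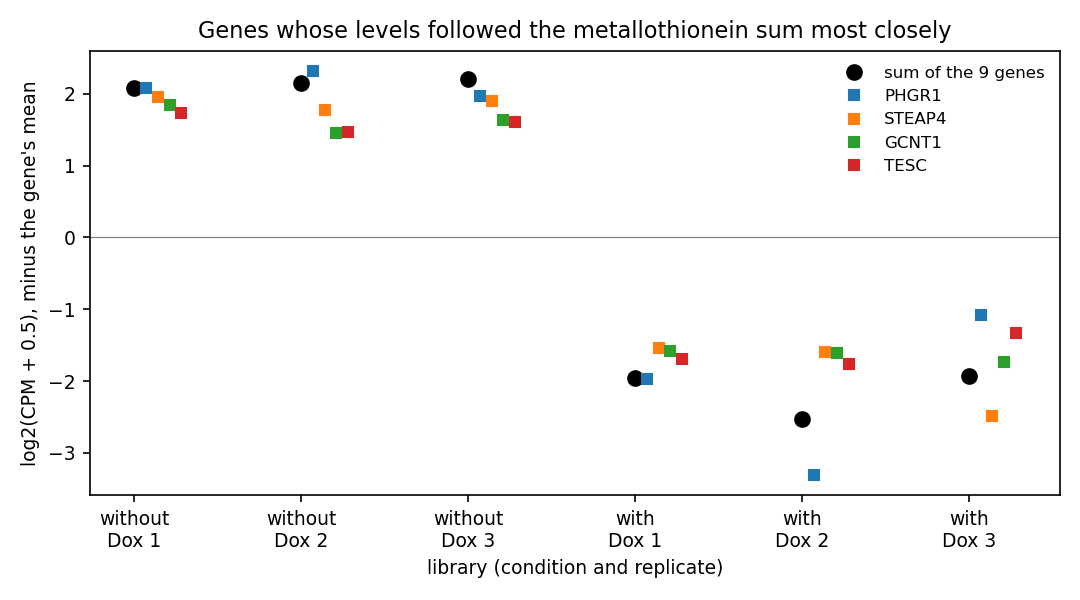
Level of the metallothionein sum (black) and of 4 of the 5 genes most like it (coloured squares) in each library, as log2(CPM + 0.5) minus each profile's mean over the 6 libraries. PHGR1, STEAP4, GCNT1 and TESC follow the sum with RMS differences of 0.487 to 0.568.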

How the data were processed

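Gene expression was measured in 6 QuantSeq 3′ mRNA libraries of 22Rv1-ABHD5 cells, 3 per condition, grouped by the labels. The labels name the forward kit and the methods the reverse kit, and use of strand in counting is not given in the sources used here. Per the labels and methods, the authors demultiplexed 100-base single-end reads with CASAVA 1.8.2, screened them with FastQC, mapped them to hg38 with STAR and counted them per gene with HTSeq. The deposited table holds raw counts. Its 5 rows that name no gene were left out of library sizes and tests. Reads in no gene were 32.5 to 39.5% of the reads in the table, and ambiguous reads 3.05 to 3.37%. The authors also deposited normalized signal per library, with library totals of 3314940 to 3693860, by a method not given for these files. These values were used in an alternative only.

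Counts were scaled with TMM, filtered with filterByExpr and tested with edgeR 4.0.16 (R 4.3.3) by its quasi-likelihood test with Benjamini-Hochberg adjustment over all 12233 genes. The threshold was an adjusted p of 0.05. The script was tested on simulated data. The metallothioneins and all gene lists were chosen with earlier results of these data known. Named genes were the 9 members and the other metallothionein rows of the table, ABHD5, MTF1, SLC30A1, SLC39A10, in each list the 4 genes of smallest adjusted p in each direction among those called, every tested gene beside the cluster, and the 5 genes of nearest profile. MT1CP was not analysed here, and some genes that the rule names are not reported here. NR3C1 and the single markers of fibroblasts, leukocytes and endothelium were named after their values were seen, as was SLC39A1, which completes the called importers. Replicates of a condition differed by more than sampling noise (chi-square per degree of freedom 4.07 to 11.3), so none was merged. Alternatives were library totals, RLE and upper-quartile scaling, other count filters, DESeq2 1.42.0, limma 3.58.1 on log2(normalized signal + 1), each library left out, and a replicate block.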

Additional observations from a re-analysis of the deposited data

How the results depend on the processing

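The metallothionein sum had a log2 ratio of -4.53 without MT2A, against -4.28 with it, and of -4.38 to -4.11 when single libraries were left out. With at least 10 counts required in every library, 2 metallothioneins were tested and both called lower, since the filter removed the others. Scaled by library totals, the medians (log2) of the metal handling and oxidative stress lists were -0.029 and 0.21, and OGFOD1 was at 0.022. The oxidative stress list was at 0.17 with at least 10 counts, and ran from -0.00233 without Control replicate 2 to 0.22 without OE replicate 2. Leaving out single libraries moved the median of the genes beside the cluster from -0.055 to 0.25. OGFOD1 ranged from -0.24 to 0.032, the latter without OE replicate 3, and CPNE2 turned to -0.14, -0.00885, -0.024 and -0.10 without Control replicates 1 and 2 and OE replicates 2 and 3. The cause was not tested. Of 694 values for single genes and list counts under the alternatives, 612 kept their direction and side of the threshold or, for a count, stayed within 1.5 times the reported count. The count of differing genes ranged from 2181 to 3539.

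Whether the replicate numbers pair the samples cannot be decided here. The correlations of same-numbered deviations were -0.00958, 0.229 and 0.0856, which do not exclude pairing. In both groups replicate 2 had the fewest counts in genes and replicate 3 the most. With the number as a replicate block, 3539 genes and 6 metallothioneins were called, the mean log2 difference of the metallothionein sum over same-numbered libraries was -4.30, and the median log2 fold changes were -0.15, -0.60, 0.094 and 0.030 for the metal handling, glucocorticoid, oxidative stress and neighbouring genes. The block called 8 metal handling genes lower, against 5 without it, and BBS2 higher (adjusted p = 0.0387).

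Depth limits the metallothioneins in the libraries with Dox, where 112 to 361 counts covered all 9 genes. Shares of the less counted genes, and values for MT1H, MT1M and MT1A, rest on few reads.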
